A study of Mus musculus with 10 samples.

Results

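The 3 genes described here are *Hcrt*, which encodes the precursor of the neuropeptides orexin A and orexin B, and *Hcrtr1* and *Hcrtr2*, which encode the orexin receptors. They were chosen by gene symbol, as 3 of the 33502 gene symbols of the deposited count table, and their unique molecular identifiers (UMIs, each a tag for a captured RNA molecule) were followed in each library over neurons split by regional marker genes. These regional levels and the spread of the *Hcrt* UMIs over nuclei were part of how the genes were selected on these data, and the study itself used *Hcrtr1* as a marker of a PVT subtype, so both are given as descriptions with no test.

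Orexins are made by a small population of neurons in the lateral hypothalamus, which are active in wakefulness and whose axons reach most of the brain. A densely innervated target of these axons is the thalamic paraventricular nucleus (PVT). Both receptors are coupled to G proteins. Through Gq they activate phospholipase C, which releases calcium and activates protein kinase C, and orexins excite many neurons by closing potassium channels or opening cation conductances. *Hcrtr1* prefers orexin A, whereas *Hcrtr2* binds both peptides.

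Nuclei were isolated from tissue punches of the PVT and its surroundings of C57BL/6J mice aged 12 weeks, for which the labels name no treatment, and the methods describe 4 replicates, each from 4 mice dissected together, without saying how many mice the further libraries hold. The 10 libraries were 6 labelled female and 4 without a sex in their labels, which the deposited metadata list as male and which are called male here. Together they held 20503 nuclei, of which 10410 were named neurons by the authors. Male libraries held 875 to 7213 nuclei and 7568267 to 55956635 UMIs, and female libraries 1049 to 1615 nuclei and 5119927 to 12891409 UMIs. The median neuron had 13580 UMIs in the male set and 6843 in the female set, and the male nuclei held 0 mitochondrial UMIs, so sex, depth and this difference in the counted genes cannot be told apart between the sets. Of 20457 distinct cell barcodes, 46 occurred in more than 1 library.

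Neurons with over 1000 genes were clustered without the 3 genes and named from regional markers. This gave 5923 PVT-like nuclei, 1826 like the mediodorsal thalamus (MD), 702 like the intermediodorsal thalamus (IMD), 976 like the GABAergic principal nucleus of the bed nucleus of the stria terminalis (BSTpr) and 880 like the habenula (Hb). With residuals taken within libraries, a cluster of 1618 nuclei was named IMD-like and one of 858 MD-like, so the split between these groups depends on the clustering. The first marker of each region was highest in its own group. Levels are given as CPM, the UMIs of a gene per 1000000 non-mitochondrial UMIs of the same nuclei. They were computed in each library, except where the libraries are said to be pooled. *C1ql3* had 359 CPM among PVT-like neurons and no more than 64.8 elsewhere, *Adarb2* was at 1397 in MD-like neurons, *Lpl* at 29.0 in IMD-like neurons, *Gad2* at 60.0 in BSTpr-like neurons and *Nwd2* at 6798 in Hb-like neurons. Further markers need not follow. In the authors' clusters, the IMD markers *Lpl*, *Cdh24* and *Adgrd1* were highest in Neurons (7), which was mostly IMD-like. *Crhr1*, another IMD marker, was at 8.72 ± 3.36 there and at 10.5 ± 5.36 in Neurons (5), which was mostly BSTpr-like. 

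*Hcrt* (ENSMUSG00000045471.4, chr11:100761069-100762931, minus strand, GRCm38) was found mostly in a single nucleus. There were 424 *Hcrt* UMIs in 89 nuclei, and 335 of them, or 79.0% (95% Wilson interval 74.9 to 82.6%), lay in a neuron of male replicate 3. That interval takes UMIs as independent and does not measure the spread over nuclei or libraries. With 1 library left out, the nucleus with the most *Hcrt* held 3.64 to 82.1% of the UMIs. The lowest share was without male replicate 3, where that nucleus was another one, with 2 UMIs of 55. Beside the nucleus with 335 UMIs, 87 nuclei held 1 UMI and 1 held 2 UMIs. No nucleus lay between 2 and 335.

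The nucleus with 335 *Hcrt* UMIs had 14132 UMIs from 4893 genes, near the median of 15781 for the neurons of its library, and *Hcrt* made up 2.37% of them. Its barcode occurred in 1 library. Besides *Hcrt*, it held 2 UMIs of *Pdyn*, the dynorphin precursor that orexin neurons also make, where the mean level of its library's neurons would give 0.0147. *Nptx2* and *Lhx9*, the other genes listed for orexin neurons with a UMI there, had 1 UMI each, against 0.386 and 1.87 at the mean level. *Pmch*, the peptide gene of the neighbouring melanin-concentrating hormone neurons, and *Qrfp* had no UMI in it.

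Its further leading genes, singled out after their values were seen, included the prohormone convertase gene *Pcsk1* with 9 UMIs against 0.162 at the mean level, *Rfx4* with 14 against 0.0855 and *Nnat* with 22 against 1.20. Neither receptor had a UMI in this nucleus. It held 5 UMIs of *C1ql3* (3.70 at the mean level) and 3 of *Nwd2* (7.18). There were none of *Adarb2* (4.07), and none of *Gad2* (0.291) or *Lpl* (0.0482), whose mean levels are too low for this to say much. It held 2 UMIs of *Slc17a6*, the vesicular glutamate transporter of most thalamic neurons, against 5.17 at the mean level. The authors placed it in Neurons (5), of which 89.4% were BSTpr-like, and the clustering placed it among PVT4-like neurons, or among BSTpr-like neurons when residuals were taken within libraries. Its own marker UMIs placed it in the PVT, so these splits named it differently. It also held 7 UMIs of *Dnah9*, a dynein gene of motile cilia, against 0.123, and 1 each of *Dynlrb2* and *Mog*, listed markers of ependymal cells and oligodendrocytes, against 0.0126 and 0.0453.

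The other 89 *Hcrt* UMIs were spread thinly over all 10 libraries. Without the nucleus described above and with all libraries pooled, the level was 0.619 CPM in neurons (95% exact Poisson interval 0.489 to 0.772, 78 UMIs). It was 0.341 in the other cell types (0.170 to 0.610, 11 UMIs), and these intervals overlapped. Counted per 1000 nuclei, with no scaling for depth, there were 7.49 *Hcrt* UMIs in neurons (5.92 to 9.35) and 1.09 in the other cell types (0.544 to 1.95). On that scale the intervals did not overlap. Such intervals cover counting error only. Per library the level over all cell types ran from 0.0856 in male replicate 1 to 1.26 in female replicate 5. Male replicate 3 had 0.827 (0.572 to 1.16) without the nucleus, inside the range of the others. Astrocytes held 6 of these UMIs, oligodendrocyte precursors 3, oligodendrocytes 1 and microglia 1.

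Among the deposited neuron clusters the remaining level, again with all libraries pooled, ran from 0.175 CPM in Neurons (3) to 1.36 in Neurons (4). Only Neurons (4), with 18 UMIs and an interval of 0.808 to 2.16, lay wholly above the interval of Neurons (3), 0.0361 to 0.512. PVT-like neurons had 0.749 (0.567 to 0.971) and Hb-like neurons 0.540 (0.147 to 1.38). Whether these UMIs came from RNA free in the nuclear suspension was not tested.

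**Figure D1:**
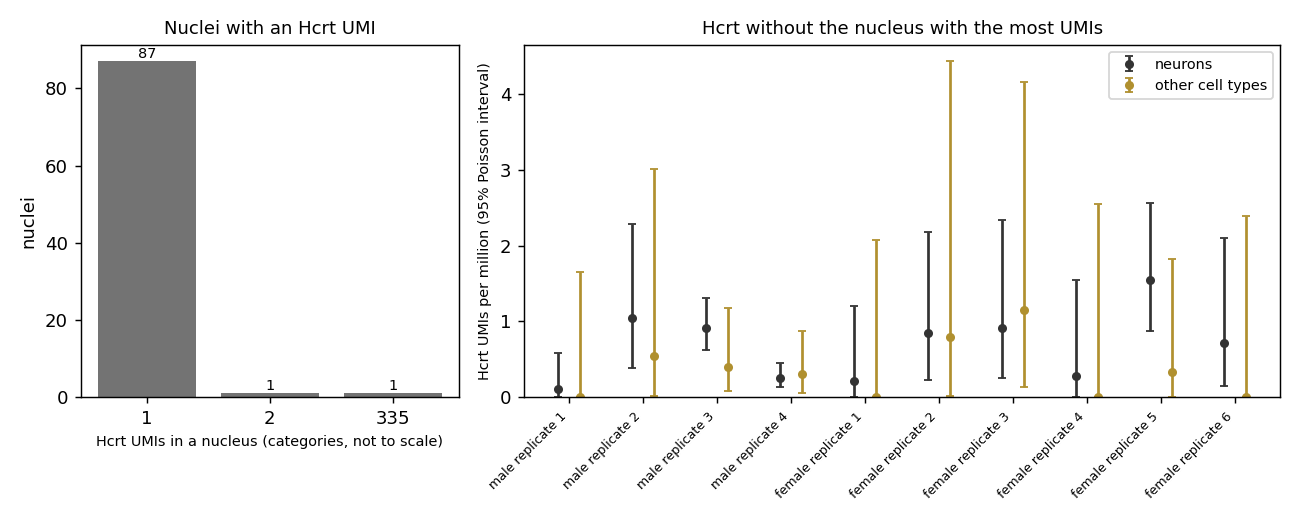
Left, number of nuclei with each count of *Hcrt* UMIs; right, *Hcrt* CPM in neurons and in other cell types of each library with 95% exact Poisson intervals, without the nucleus that held 335. Of 89 nuclei with an *Hcrt* UMI, 87 held 1, and within every library the intervals of neurons and other cell types overlapped.

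Peptide genes of other hypothalamic neurons are set beside *Hcrt*, and whether their UMIs came from neighbouring tissue or from free RNA was not tested. Their CPM are from all libraries pooled unless said otherwise. *Agrp*, expressed in feeding neurons of the arcuate nucleus, had 7085 UMIs over 4904 nuclei, at most 18 in a nucleus, at 49.7 CPM in neurons and 25.3 in other cells. *Pomc* had 415 UMIs over 395 nuclei, with at most 3 in any of them, at 2.49 in neurons and 3.13 in other cells. As a mean over libraries it was 3.44 ± 1.33 in neurons and 2.85 ± 3.21 in astrocytes, so no order is stated. *Gnrh1* had 159 UMIs over 157 nuclei. *Kiss1* had 0 UMIs in all 20503 nuclei, which allows up to 0.0189 CPM. The only other peptide of the list with a large share in a nucleus was *Avp*, vasopressin, with 38 of its 107 UMIs in a single nucleus, which is named after its value was seen.

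*Hcrtr1* (ENSMUSG00000028778.15, chr4:130130217-130139359, minus strand) was a gene of low level, highest in PVT-like neurons. It had 528 UMIs in all, 496 of them in 406 neurons, and no neuron held over 4. In PVT-like neurons the level was 5.36 ± 0.918 CPM (SD, n = 10 libraries), with a lowest library at 4.39, a median of 5.07 and a highest at 7.38. It was 2.37 ± 2.89 in BSTpr-like, 1.43 ± 2.58 in IMD-like, 0.862 ± 2.08 in Hb-like and 0.484 ± 0.520 in MD-like neurons.

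No library lacked *Hcrtr1* in PVT-like neurons, whereas it was at 0 in 4 libraries of BSTpr-like, 6 of IMD-like, 7 of Hb-like and 5 of MD-like neurons. PVT-like neurons held 76108407 UMIs of all genes, and the other groups from 7073190 (BSTpr-like) to 25943967 (MD-like). A level of 0 is reached more easily in the smaller sums. PVT-like neurons were above MD-like neurons in 10 of 10 libraries, above IMD-like and Hb-like neurons in 9 and above BSTpr-like neurons in 8. The first 3 of these differences exceeded their SD over libraries. The last, 2.99 ± 3.29 CPM, did not, and neither did any difference between neighbours among the 4 lower groups. The level in PVT-like neurons stood 2.06 above the mean of the other groups on the log2 scale, or 1.30 with nuclei split by their own marker UMIs, and the groups behind that mean rested on 59 UMIs.

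The level of *Hcrtr1* differed further among the PVT-like subtypes, which were named from markers other than the receptors. The study had picked *Hcrtr1* as its marker of PVT4 from these data, so its rank in PVT4-like neurons is not independent. *Hcrtr1* was highest in PVT4-like neurons, at 14.9 ± 7.46 CPM (SD, n = 10), from 6.53 to 27.9 with a median of 11.8. It was 6.97 ± 2.00 in PVT3-like, 5.62 ± 4.61 in PVT5-like, 2.26 ± 1.64 in PVT1-like and 2.02 ± 3.11 in PVT2-like neurons, and 3.39 ± 2.54 in a PVT-like cluster of 1184 nuclei that had too few raised subtype markers to be named. PVT1-like neurons joined a cluster of 1229 nuclei, with 3 of 6 PVT1 markers raised, and one of 134 led by *Egr4*, *Fosb* and *Nr4a2*. The unnamed cluster also scored highest for PVT1, with 1 of 6 markers raised.

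PVT4-like neurons held 208 of the 437 *Hcrtr1* UMIs of PVT-like neurons. They were above PVT3-like neurons in 10 of 10 libraries, by 7.93 ± 8.05 CPM, a difference that did not exceed its SD. They were above PVT5-like neurons in 9 of 10, by 9.27 ± 10.55 CPM, which did not exceed its SD either. PVT3-like neurons in turn were above PVT1-like neurons in 10 of 10 and above PVT2-like neurons in 9 of 10, both by more than the SD, and PVT3-like and PVT5-like neurons did not differ beyond their spread. *Hcrtr1* was at 0 in PVT2-like neurons of 6 libraries and in PVT1-like neurons of 2.

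*Hcrtr2* (ENSMUSG00000032360.16, chr9:76225880-76323856, minus strand) had another order of levels, with IMD-like neurons first and Hb-like neurons nearly without it. The Hb-like cluster was led by *Chat*, *Robo3* and *Rtn4rl2*, and it need not stand for all habenula neurons. Of its 4986 UMIs, 4837 lay in 2304 neurons, and the neuron with the most held 19. IMD-like neurons had 110 ± 29.0 CPM (SD, n = 10), from 73.5 to 170.1 with a median of 99.3. BSTpr-like neurons had 59.7 ± 19.5, PVT-like neurons 45.2 ± 8.19, MD-like neurons 15.9 ± 6.28 and Hb-like neurons 1.93 ± 3.17.

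IMD-like neurons were above each of the other 4 groups in 10 of 10 libraries, and each of these differences exceeded its SD over libraries. BSTpr-like neurons were above PVT-like neurons in 8 of 10, by 14.5 ± 18.5 CPM, within the spread. PVT-like neurons were above MD-like neurons, and MD-like above Hb-like neurons, in 10 of 10 libraries and by more than the SD. In Hb-like neurons *Hcrtr2* was at 0 in 5 libraries, and 15 UMIs were counted in 880 nuclei. Against the mean of the other groups, PVT-like neurons stood at -0.06 on the log2 scale (above it in 4 of 10 libraries), and IMD-like neurons at 1.85 (10 of 10). With residuals within libraries the PVT-like value was 0.36 and the IMD-like value 1.53, and with nuclei split by their own marker UMIs they were 0.08 and 1.11.

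Within the PVT-like neurons, *Hcrtr2* was highest in PVT4-like neurons as well. It was 85.8 ± 18.6 CPM there, from 57.6 to 123.5 with a median of 84.2, then 62.9 ± 19.0 in PVT5-like, 47.0 ± 11.5 in PVT3-like, 31.1 ± 16.4 in PVT2-like and 26.1 ± 11.3 in PVT1-like neurons. The unnamed PVT-like cluster was at 37.0 ± 9.12. PVT4-like neurons were above PVT5-like neurons in 7 of 10 libraries, PVT3-like in 9, and PVT1-like and PVT2-like neurons in 10. Neighbours in this order differed by more than the SD from PVT4-like to PVT5-like to PVT3-like neurons, and PVT2-like and PVT1-like neurons did not (5.03 ± 15.9).

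Against the mean of the other subtypes, PVT4-like neurons were 1.82 higher on the log2 scale for *Hcrtr1* and 1.04 higher for *Hcrtr2*, in 10 of 10 libraries for both. With nuclei split by their own marker UMIs these values were 2.08 and 0.58. PVT1-like neurons were at -1.71 and -1.12. Whether the receptors differ in the size of this step was not tested.

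**Figure D2:**
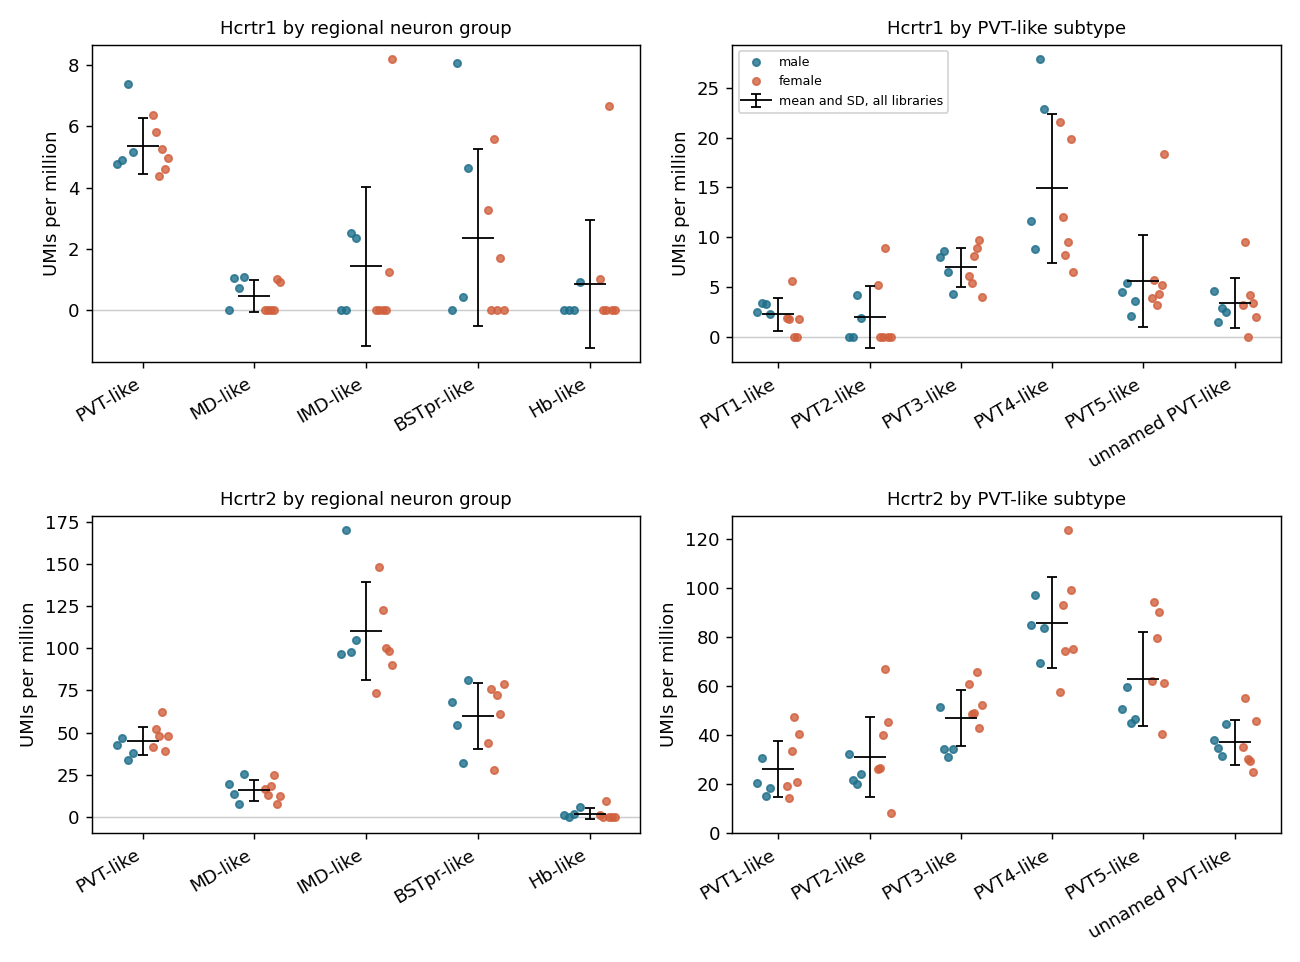
CPM of *Hcrtr1* (top) and *Hcrtr2* (bottom) by regional neuron group (left) and PVT-like subtype (right); each point is a library, blue for male and orange for female, and bars give the mean and SD over all libraries. *Hcrtr1* was above 0 in every library only in PVT-like neurons, the largest of the regional groups, and *Hcrtr2* of IMD-like neurons lay between 73.5 and 170.1.

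In the neuron clusters that the authors deposited, a mostly PVT-like cluster led for *Hcrtr1* and a mostly IMD-like cluster for *Hcrtr2*. *Hcrtr1* was highest in Neurons (2), at 11.6 ± 3.94 CPM, and next in Neurons (4), at 7.28 ± 3.28, clusters that were 95.6% and 99.6% PVT-like. Neurons (2) were above Neurons (4) in 8 of 10 libraries, a difference of 4.37 ± 6.58 that lay within its SD. Neurons (1), also 97.7% PVT-like, had 1.96 ± 0.852.

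*Hcrtr2* was highest in Neurons (7), at 113 ± 35.5 CPM, of which 74.2% were IMD-like, and was 80.1 ± 22.2 in Neurons (2), 52.2 ± 14.3 in Neurons (5) and 48.5 ± 10.3 in Neurons (4). Neurons (7) were above Neurons (2) in 7 of 10 libraries, within the spread of the difference. Neurons (7), first for *Hcrtr2*, were at 1.03 ± 1.52 for *Hcrtr1*, at 0 in 6 libraries. Neurons (6), which were 93.5% Hb-like, had 1.47 ± 2.11 for *Hcrtr2* and 0.872 ± 2.11 for *Hcrtr1*. The MD-like clusters differed, with 27.1 ± 13.3 in Neurons (8) and 8.11 ± 4.99 in Neurons (3) for *Hcrtr2*, and Neurons (8) were above in 10 of 10 libraries.

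**Figure D3:**
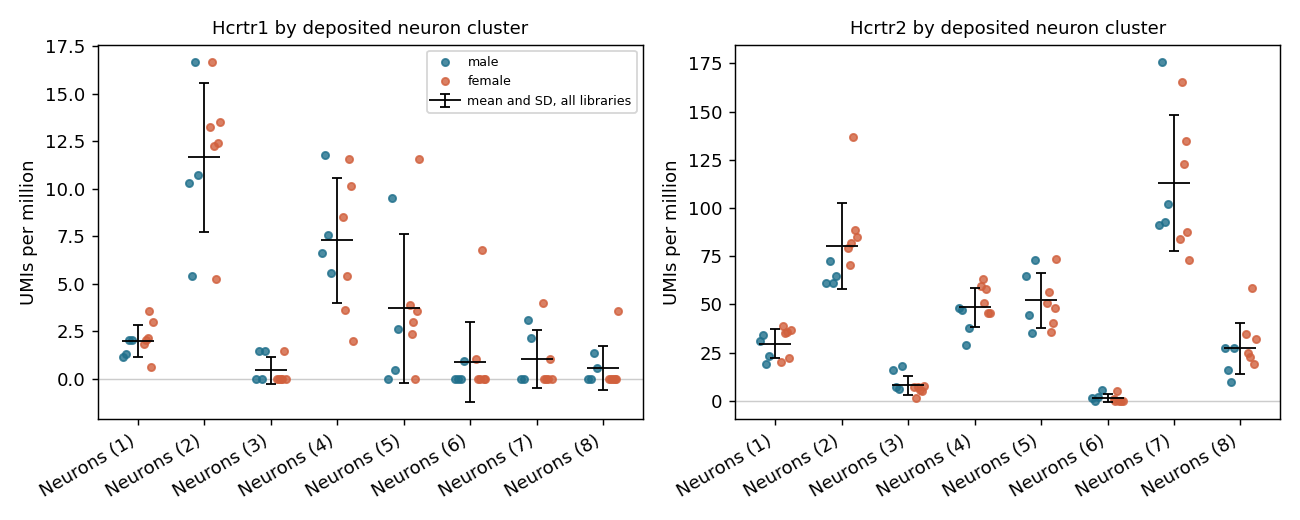
CPM of *Hcrtr1* (left) and *Hcrtr2* (right) in the 8 deposited neuron clusters; points are libraries, blue for male and orange for female, and bars the mean and SD over all libraries. *Hcrtr1* peaked in Neurons (2) at a mean of 11.6 and *Hcrtr2* in Neurons (7) at a mean of 113.

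Outside neurons *Hcrtr1* was too sparse to order the cell types, and *Hcrtr2* was lower than in neurons. *Hcrtr1* had 32 UMIs in 10093 other nuclei, 16 of them in 5302 astrocytes (0.805 ± 0.95 CPM), against 3.45 ± 0.703 in neurons. It was 2.77 ± 7.32 in endothelial cells (1 UMI), 2.45 ± 6.92 in fibroblasts (2 UMIs) and 2.21 ± 3.48 in ependymal cells (5 UMIs). Neurons exceeded endothelial cells, the next type, by 0.757 ± 7.49 CPM, within the spread. *Hcrtr2* had 149, at 41.1 ± 7.57 in neurons, 7.70 ± 8.99 in microglia and 2.16 ± 2.94 in oligodendrocytes, and microglia held 26 UMIs in 18 of 993 nuclei. Neurons were above oligodendrocyte precursors, the next group for *Hcrtr2* at 8.62 ± 16.7, in 8 of 9 libraries with enough nuclei.

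Shares of nuclei with a UMI depend on depth, so nuclei were also compared at 2000 UMIs each, leaving out 202 neurons and 862 oligodendrocytes that were shallower. At this depth *Hcrtr2* was found in 6.84 ± 1.29% of neurons (21.1 ± 4.53% without thinning, median 11138.5 UMIs) and in 0.328 ± 0.501% of oligodendrocytes (0.586 ± 0.699%, median 2311.5 UMIs), taken here as the type to set a background. It was found in 17.2 ± 3.72% of IMD-like, 9.41 ± 3.14% of BSTpr-like, 7.53 ± 1.29% of PVT-like and 3.10 ± 1.02% of MD-like neurons, the order of the levels. The share in Hb-like neurons, 0.613 ± 1.33%, exceeded that of oligodendrocytes by less than its SD, so it was not told apart from that background.

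*Hcrtr1* was found in 1.23 ± 0.190% of PVT-like neurons at 2000 UMIs (5.45 ± 2.31% without thinning) and in 0.0873 ± 0.208% of oligodendrocytes (0.0739 ± 0.177%). Among subtypes the thinned share was 3.15 ± 1.52% in PVT4-like, 1.59 ± 1.32% in PVT5-like, 1.53 ± 0.412% in PVT3-like, 0.592 ± 1.06% in PVT2-like and 0.577 ± 0.456% in PVT1-like neurons. It was 0.382 ± 0.419% in BSTpr-like, 0.211 ± 0.323% in IMD-like, 0.104 ± 0.121% in MD-like and 0.0702 ± 0.148% in Hb-like neurons. In these 4 groups and in PVT2-like neurons it did not exceed the share of oligodendrocytes by more than the group's SD. It was thus not told apart from background at this depth, which does not show that *Hcrtr1* is absent there. Their mean levels ran from 0.484 CPM in MD-like to 2.37 in BSTpr-like neurons, with 2.02 in PVT2-like neurons. Oligodendrocytes were at 0.218 ± 0.478 (3 UMIs).

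The receptors were also found in the same nuclei. Of 356 PVT-like nuclei with *Hcrtr1*, 136 (38.2%) also had *Hcrtr2*, against 24.3% of those without *Hcrtr1*. Nuclei with *Hcrtr1* were deeper (median 13809.5 against 11835.0 UMIs), and within strata of library and depth the odds ratio was 1.76, above 1 in 7 libraries and below in 3. Within subtypes it was 0.996 in PVT4-like neurons, where 71 nuclei had both (above 1 in 3 libraries and below in 7), 1.34 in PVT3-like (4 and 6) and 2.24 in PVT5-like neurons (5 and 4). It was 1.18 in PVT1-like (3 and 5), 1.24 in PVT2-like (1 and 1) and 1.53 in unnamed PVT-like neurons (6 and 3). These are descriptions across nuclei, which are not replicates.

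The levels of the receptors are set side by side only per length, although UMIs of 3' libraries need not scale with either length used here. *Hcrtr2* had 4837 UMIs in neurons over a gene of 97.98 kb, or 49.4 UMIs per kb of gene span, and *Hcrtr1* had 496 over 9.14 kb, or 54.3 per kb. Per kb of annotated exon the values were 785 for *Hcrtr2* and 190.2 for *Hcrtr1*. These scales gave opposite orders, so no order of level between the receptors is stated.

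Over 9 groups (5 PVT-like subtypes and the MD-like, IMD-like, BSTpr-like and Hb-like neurons), the mean log2 levels of the receptors had a Pearson r of 0.53 with each other. The 5 genes most like *Hcrtr1* among 14108 compared were *Gm19410* (r = 0.97), *Dusp18*, a dual-specificity phosphatase gene (0.97), *Mocos*, the molybdenum cofactor sulfurase gene (0.97), *Acvr2a*, an activin receptor gene (0.97), and *Chmp4c*, of the membrane-remodelling ESCRT-III complex (0.97). All 5 had their highest mean log2 level in PVT4-like neurons, from 2.56 for *Mocos* to 6.86 for *Acvr2a* on the log2(CPM + 1) scale, where *Hcrtr1* was at 3.85. The 5 most like *Hcrtr2* were *Usp46os1*, *5730522E02Rik*, *Gm15942*, *4930545L23Rik* and *9630028H03Rik*, with r from 0.96 to 0.97. All 5 were lowest in Hb-like neurons, as *Hcrtr2* was at 0.99 on that scale. Only *Usp46os1* was highest in IMD-like neurons, as *Hcrtr2* was. *5730522E02Rik* and *9630028H03Rik* were highest in BSTpr-like neurons, and *Gm15942* and *4930545L23Rik* in PVT4-like neurons. The 9 points share libraries and depth, and the genes were ranked by this measure.

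The most abundant members of the precursor-processing and signal-relay lists had different orders of level over the regional groups. Of the precursor-processing genes, *Pcsk2*, a prohormone convertase, was at 1150 ± 94.6 CPM in PVT-like and 1359 ± 179 in Hb-like neurons, *Cpe*, carboxypeptidase E, at 406 ± 41.4 in PVT-like neurons, and *Scg5*, the chaperone of that convertase, at 298 ± 44.3. Of the genes listed for orexin neurons, *Lhx9* was at 136 ± 14.2 and *Nptx2* at 24.8 ± 4.96 in PVT-like neurons, and both were higher in Hb-like neurons, at 198.3 ± 67.5 and 92.7 ± 27.6.

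Among the G proteins, *Gnaq*, the Gq subunit, was at 247 ± 17.9 CPM in PVT-like neurons and 82.0 ± 22.1 in Hb-like neurons. *Gnas* was at 468 ± 78.7 and *Gnao1* at 331 ± 28.4 in PVT-like neurons. Of the enzymes below Gq, *Plcb1*, a phospholipase C, was at 678 ± 223 in BSTpr-like and 649 ± 61.9 in IMD-like neurons. It was at 444 ± 44.9 in MD-like, 418 ± 36.4 in PVT-like and 87.6 ± 37.4 in Hb-like neurons. *Plcb4* was highest in MD-like neurons, at 729 ± 62.4. *Itpr1*, the receptor that releases calcium, was at 328 ± 19.0 in MD-like, 310 ± 65.6 in IMD-like and 266 ± 19.3 in PVT-like neurons. It was at 212 ± 69.7 in BSTpr-like and 48.1 ± 18.8 in Hb-like neurons.

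The protein kinase C gene *Prkce* had 563 ± 63.7 CPM in PVT-like against 195 ± 51.1 in Hb-like neurons, while *Prkcb* was higher in Hb-like (593 ± 205) than in PVT-like neurons (245 ± 16.1). Hb-like neurons, which were nearly without *Hcrtr2*, were thus also low in several genes of the Gq relay and not in others. Of the desensitization genes, *Arrb1*, beta-arrestin 1, was at 78.5 ± 7.32 in PVT-like neurons and above the mean of the other groups in 10 of 10 libraries, *Grk3* was at 70.2 ± 9.21 and below it in all 10, and *Grk5* was at 44.0 ± 4.82.

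Among the effectors, *Slc8a1*, a sodium-calcium exchanger, was at 487 ± 51.1 CPM in PVT-like neurons and *Nalcn*, a sodium leak channel, at 364 ± 31.5. *Trpc5*, a cation channel, was at 290 ± 29.2 in PVT-like neurons, above the mean of the other groups in 10 of 10 libraries, at 376 ± 45.5 in PVT3-like and 308 ± 44.2 in PVT4-like neurons and at 28.3 ± 14.6 in Hb-like neurons.

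The test of female against male libraries was edgeR's quasi-likelihood test on summed counts of all genes. Sex, depth and the difference in counted genes cannot be told apart in this comparison. Sums of all neurons also hold the regional groups, and PVT-like sums the subtypes, in each library's own proportions. These proportions were not adjusted for, and their part in the differences was not tested. *Hcrtr2*, for example, ran from 1.93 CPM in Hb-like to 110 in IMD-like neurons. In all neurons *Hcrtr1* was at 2.64, 3.67, 5.04 and 3.96 CPM in the 4 male libraries and from 2.89 to 3.84 in the 6 female libraries, with means of 3.83 ± 0.985 and 3.20 ± 0.340. The female values lay within the male range. The log2 difference of female from male libraries was -0.36 (SE 0.21, adjusted p = 0.303, 95% interval -0.81 to 0.09). *Hcrtr2* was at 36.4, 44.9, 31.95 and 40.8 in the male and from 31.5 to 52.6 in the female libraries, with means of 38.5 ± 5.60 and 42.8 ± 8.68 and a log2 difference of 0.08 (SE 0.17, adjusted p = 0.801, interval -0.29 to 0.45). This difference changed sign without male replicate 3 (-0.017) or female replicate 2 (-0.00065). Of all 15278 genes tested in neurons, 15.2% passed (6.77% higher and 8.38% lower in female libraries), 2316 genes, or 3959 without male replicate 2.

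In PVT-like neurons the receptors again did not pass. *Hcrtr1* was at 4.77, 4.89, 7.38 and 5.17 CPM in the male libraries and at 5.23 ± 0.747 in the female, a log2 difference of -0.20 (SE 0.21, adjusted p = 0.580, interval -0.65 to 0.25). *Hcrtr2* was at 42.4, 46.6, 33.8 and 37.8 in the male libraries and at 48.5 ± 8.30 in the female, where 4 of 6 libraries lay above all male ones, a log2 difference of 0.21 (SE 0.14, adjusted p = 0.370, interval -0.10 to 0.52). Of 13570 genes tested here, 15.5% passed (7.16% higher and 8.37% lower in female libraries), 2108 genes, or 3615 without male replicate 2. A p above the threshold does not show that the sets are alike, and the intervals leave room for differences of these sizes.

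*Hcrt* did not pass the filter on low counts and is taken from the fit without it. The log2 difference in neurons was -2.07 (SE 0.92, adjusted p = 0.161), and it was 0.44 (SE 0.60, adjusted p = 0.668) without the nucleus that held 335 UMIs, so its direction rested on that nucleus. In PVT-like neurons it was -2.30 (SE 0.93, adjusted p = 0.107), and 0.53 (SE 0.69, adjusted p = 0.654) without it.

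**Figure D4:**
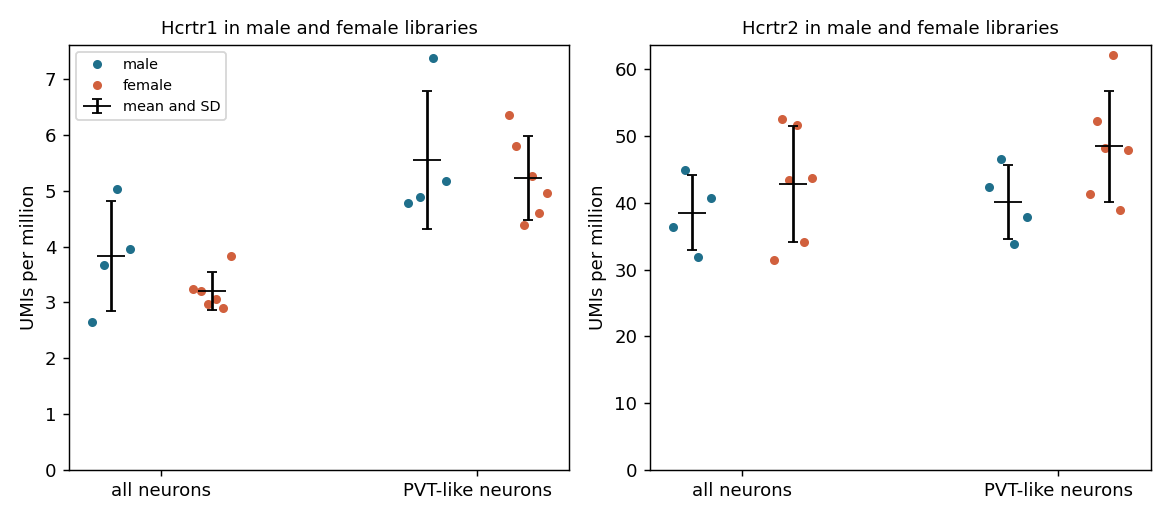
CPM of *Hcrtr1* (left) and *Hcrtr2* (right) in all neurons and in PVT-like neurons; each point is a library, blue for the 4 male and orange for the 6 female libraries, and bars give the mean and SD of each set. The sets overlapped in all 4 pairs.

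Of the 60 genes in the orexin pathway and peptide lists, 47 were tested in neurons, with a median log2 difference of -0.12 against -0.01 over all genes tested. A single member passed, against 15.2% of all genes tested. This was *Prkcd*, a protein kinase C gene, higher in female libraries by 0.55 (SE 0.16, adjusted p = 0.0308). It is named because it was the single member that passed, and its level was 227 ± 40.0 CPM in MD-like and 5.92 ± 2.97 in PVT-like neurons. In PVT-like neurons *Prkcd* did not pass with edgeR (0.26, SE 0.36, adjusted p = 0.676). Of the 45 members tested in PVT-like neurons 0 passed with edgeR, against 15.5% of all 13570 genes tested. An unadjusted p under 0.05 was found for 9 members and for 3871 of all genes tested. Under DESeq2, with the same filter on low counts, 3 of these 45 members passed, *Nalcn*, *Itpr1* and *Grk3*, all lower in female libraries. DESeq2 called 2354 genes in all, where the edgeR fit tested 13570, so these 3 are not read as a result about the lists. In all neurons 1 of the 47 members, *Prkcd*, passed under DESeq2. The share of all genes called changed strongly with the filter on genes, as given below. These counts therefore do not show that the lists differed less than other genes.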

How the data were processed

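Raw UMI counts per gene and nucleus were deposited by the authors, who aligned 10x Chromium 3' reads to mm10 (Cell Ranger 6.1.1 in the submitters' processing notes, another release in the methods), removed nuclei with under 200 genes or over 5% mitochondrial UMIs and clusters of doublets, and named the cell clusters. The percent of mitochondrial UMIs per nucleus is a deposited value. Nuclei of the male libraries hold 0 mitochondrial UMIs in the deposited matrix. No doublet caller was run here. The genes and lists were chosen with earlier results of these data known.

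Neurons with over 1000 genes were clustered without the 3 genes (Pearson residuals with theta 100, 3000 variable genes, Harmony, Leiden). A cluster took the class with the highest mean marker fold if at least 3 markers exceeded 1.5 times the median cluster. That reference replaced the remaining nuclei after the first names were seen, which had left PVT-like clusters unnamed. UMIs were summed per library and class (at least 10 nuclei) and scaled to CPM (per 1000000 non-mitochondrial UMIs). Genes were tested on summed counts with edgeR 4.0.16 (TMM, filterByExpr, Benjamini-Hochberg, 0.05), checked on simulated counts, with DESeq2 1.42.0 as an alternative. Replicates are libraries, and the p-values measure the spread between them. Named genes are the 3 genes, the 5 genes most like each receptor, and from each list the 3 members with most UMIs and any with 0. A gene that this rule names is not reported here. Replicate numbers are shared by name only. Gene coordinates are from GENCODE M21 (GRCm38).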

Additional observations from a re-analysis of the deposited data

Results flagged for a closer look

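Libraries were flagged where the highest or lowest value of a set of 4 or 6 lay far from the nearest other. Of 50 sets tested 10 were flagged, and the critical values are set so that chance flags about 1 in 20, a rate that need not hold for sets of zeros and a few UMIs. For *Hcrt* in neurons, male replicate 3 was at 10.85 CPM and the next male library at 1.049, and this library holds the nucleus with 335 UMIs. For *Hcrtr1* in all neurons, female replicate 6 was at 3.838, with the next at 3.236. For *Hcrtr1* in PVT-like neurons, male replicate 3 was at 7.384, with the next at 5.173 (159 UMIs in 1195 nuclei).

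The other flagged values rest on few UMIs or nuclei. *Hcrtr1* of IMD-like neurons was at 8.191 in female replicate 6 (3 UMIs in 48 nuclei). *Hcrtr1* of Hb-like neurons was at 0.9317 in male replicate 4 and at 6.654 in female replicate 4, from 1 UMI each. *Hcrtr2* of IMD-like neurons was at 170.1 in male replicate 2 (67 UMIs in 26 nuclei), with the next at 105.1. *Hcrtr2* of Hb-like neurons was at 9.489 in female replicate 3 (2 UMIs). *Hcrtr1* was at 5.608 in PVT1-like neurons of female replicate 3 (3 UMIs) and at 18.37 in PVT5-like neurons of female replicate 6 (6 UMIs in 33 nuclei).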

How the results depend on the processing

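Of 252 alternatives of the 14 log2 level ratios, 248 stayed within 1 SD over libraries. Runs that leave out 1 library are among these alternatives. Such runs move a mean little against that SD, so the count is a weak check. With nuclei split by their own marker UMIs, the ratio was 1.30 for *Hcrtr1* in PVT-like, 1.11 for *Hcrtr2* in IMD-like and 0.58 for *Hcrtr2* in PVT4-like neurons, and with residuals within libraries it was 0.36 for *Hcrtr2* in PVT-like neurons. The cause was not tested. Thinned to 2000 UMIs, *Hcrt* had 67.2 UMIs in 20.6 nuclei, 70.5% of them in 1 nucleus. That share was 82.9% among nuclei under 1% mitochondrial UMIs. Without that nucleus, chosen after seeing the data, 89 UMIs remained, at most 2.25% in a nucleus. Leaving out 1 library gave 55 to 423 UMIs, 54 to 88 nuclei and a share of 3.64 to 82.1% in the nucleus with the most. The lowest share was without male replicate 3, where another nucleus held the most.

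For *Hcrt*, leaving out 1 library moved the log2 difference of female from male libraries over -2.54 to 1.00 in neurons and -2.98 to 1.13 in PVT-like neurons, above 0 without male replicate 3. Without the nucleus it was 0.44 and 0.53. For *Hcrtr2* in neurons the range was -0.02 to 0.16, below 0 without male replicate 3 (-0.017) or female replicate 2 (-0.00065). Of the fits of the 3 genes with 1 library left out, 4 passed the threshold in the direction of the main fit, which had not passed. With no low-count filter 4455 genes were called in neurons and 4456 in PVT-like neurons, and with DESeq2 2699 and 2354. With 1 library left out the counts were 1991 to 3959 and 1750 to 3615. With genes of at least 20 UMIs in each set and an absolute log2 ratio of the sets under 3, they were 472 and 549. The limit on the ratio removes genes by the difference that is tested.

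Replicate numbers are shared by name only. Deviations of same-numbered libraries correlated at -0.12, -0.17, -0.14 and 0.19 in neurons and 0.10, 0.01, -0.08 and 0.08 in PVT-like neurons. With the replicate block, on 8 libraries, 1712 and 1459 genes were called, *Hcrt* was at -1.84 and -2.79 (adjusted p = 0.204 and 0.00388, so that in PVT-like neurons *Hcrt* passed, with the nucleus that held 335 UMIs included), *Hcrtr1* at -0.35 and -0.10, and *Hcrtr2* at 0.12 and 0.29. Low counts limit *Hcrt* and *Hcrtr1* most.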
